A study of Homo sapiens with 18 samples.

Results

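The 9 genes described here belong to the branches of the unfolded protein response that are led by IRE1 and ATF6, and were followed across the 6 groups of the series. They are the sensor genes ERN1, ATF6 and ATF6B, the transcription factor genes XBP1, BHLHA15, CREB3 and CREB3L2, and the protease genes MBTPS1 and MBTPS2. Members were chosen by name, and each symbol matched 1 Ensembl ID. These are 9 of the 60683 IDs in the count table and 9 of the 18159 genes with enough counts to be tested. All 9 passed the filter on low counts.

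The libraries were made from cultures of Cal27, an established human line of oral squamous cell carcinoma from the tongue, after 24 hours in the test medium. The groups, of 3 libraries each, were glucose-deprived medium with CGRP, glucose-deprived medium without it, high-glucose DMEM with 2-deoxyglucose (2-DG) and CGRP, the same without CGRP, high-glucose DMEM with CGRP, and high-glucose DMEM without it. CGRP, calcitonin gene-related peptide, is a neuropeptide released by sensory nerves, and was given as recombinant human peptide at 10 nM. 2-DG, given at 5 mM, is a glucose analogue that blocks glycolysis and also disturbs the N-linked glycosylation of proteins. Which libraries had CGRP rests on the reading of the sample codes, TG for CGRP and capTG for its control, in the series' design text. The labels' growth protocol speaks only of different "CM", which may stand for conditioned media. The 3 libraries of a group are stated only as biologically independent repetitions, and no label speaks of separate cultures. The p-values measure the spread between these libraries, part of which may be technical.

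When unfolded proteins collect in the endoplasmic reticulum (ER), 3 sensors in its membrane respond. IRE1, encoded by ERN1, is a kinase and an RNase that cuts a short intron out of the XBP1 mRNA in the cytoplasm. The RtcB ligase joins the ends, and the joined mRNA encodes a potent activator of genes for protein translocation, folding, secretion and ER-associated degradation. ATF6 travels to the Golgi, where the site-1 protease (MBTPS1) and then the site-2 protease (MBTPS2) free its cytoplasmic part, which enters the nucleus and activates chaperone genes and XBP1 itself. ATF6B is its paralog, and CREB3 and CREB3L2 are related membrane-bound factors released by the same proteases. The remaining sensor, PERK, acts through translation and ATF4. Secretory cells rely heavily on these branches, and tumour cells short of glucose or with poorly glycosylated proteins engage them too.

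The stretch of XBP1 mRNA that IRE1 removes is shown because the gene counts used here cannot tell cut from uncut mRNA. It lies on chromosome 22 from 28796124 to 28796149 (GRCh38, minus strand, coding exon), and was read as the difference between 2 annotated GENCODE 29 transcripts of the gene. Capitals mark the 26 bases removed, and lower case marks 30 bases on either side.
XBP1 uncut: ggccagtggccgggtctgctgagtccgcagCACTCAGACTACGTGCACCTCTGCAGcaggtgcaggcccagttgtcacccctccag
XBP1 cut: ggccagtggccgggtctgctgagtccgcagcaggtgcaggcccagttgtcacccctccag
Since 26 is not a multiple of 3, the removal shifts the reading frame. A repeated CA at both ends means that the annotation places the same removal 2 bases over in another transcript. Every XBP1 value below is the sum of both forms, and none of them measures splicing or the activity of IRE1.

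All 9 genes had a promoter window in a RefSeq table (GRCh38.p14, 250 bases before to 50 after the start, 11 windows). The ER stress response element (ERSE), read by ATF6 with the factor NF-Y, was searched on both strands as CCAAT, any 9 bases, then CCACG. Among the 9 genes it was found in XBP1 alone, and 0.0769% of all 35116 windows hold it. Below are the 150 bases before the XBP1 start (chr22:28800570-28800719, minus strand), with the match, at -52 to -34 from the RefSeq start, in capitals.
XBP1 promoter: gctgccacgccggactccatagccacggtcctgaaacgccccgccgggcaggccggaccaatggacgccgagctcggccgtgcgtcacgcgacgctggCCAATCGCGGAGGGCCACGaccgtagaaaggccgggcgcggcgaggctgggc
For comparison, the same element is shown from known ATF6 targets, read in its own direction with the fixed letters in capitals. Those of HSPA5 and HSP90B1 run with the gene and that of CRELD2 runs against it. They are from HSPA5 (chr9:125241391-125241409, minus strand), HSP90B1 (chr12:103930216-103930234, plus strand), CRELD2 (chr22:49918554-49918572, minus strand) and XBP1 again.
HSPA5: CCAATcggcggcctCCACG
HSP90B1: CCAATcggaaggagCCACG
CRELD2: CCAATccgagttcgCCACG
XBP1: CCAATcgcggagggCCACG
Of the 20 genes listed as ATF6 targets, 18 had a window. ERSE was in 6 of them (HSPA5, HSP90B1, CALR, CANX, CRELD2 and XBP1), and the related ERSE-II, ATTGG, any 1 base, then CCACG, was in HERPUD1, SDF2L1 and HYOU1, against 0.0541% of all windows. The cyclic AMP response element TGACGTCA was found in 1 window of CREB3L2 and of no other member, at -179 to -172, against 1.85% of all windows. The core TGACGTGG of the element read by XBP1 and ATF6 was in none of the members' windows and in 0.729% of all. The ATF6 target list was drawn from genes known for such elements, and a match is a description of letters and not a measured site.

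Library totals ran from 28038260 to 32661768 counts. Levels are given in CPM, counts scaled to a common library size with the TMM method of edgeR, and differences as log2 fold changes ± SE from the edgeR quasi-likelihood test, with p-values adjusted by Benjamini-Hochberg over the 18159 genes and a threshold of 0.05. Markers of squamous epithelium were as the label of the line says, with all 9 over 1 CPM in every group and summed levels from 3719 to 5253 CPM. Summed markers of fibroblasts (7 genes) were at 10.6 to 28.7 CPM over all libraries, and in 2-DG medium they were at 24.4 to 25.4 CPM with CGRP and 18.1 to 19.7 CPM without it. Summed markers of leukocytes (5 genes) were higher with CGRP in each medium, at 0.195 to 0.389 CPM with it and 0 to 0.0988 CPM without it in deprived medium, 3.2 to 4.34 CPM with it and 1.81 to 2.04 CPM without it in 2-DG medium, and 2.88 to 4.71 CPM with it and 2.16 to 2.4 CPM without it in high glucose. Summed markers of neurons and glia (6 genes) were at 8.32 to 21 CPM. Summed endothelial markers (4 genes), nearly all from CDH5, also moved with CGRP: they were at 3.12 to 3.87 CPM with it and 1.79 to 2.63 CPM without it in deprived medium, at 39.5 to 43.7 CPM with CGRP and 21.3 to 25.1 CPM without it in 2-DG medium, and at 42.3 to 43.9 CPM with CGRP and 24.3 to 25.2 CPM without it in high glucose. KDR was at 0 in 4 of the 6 groups and PECAM1 was at most 0.188 CPM on average. Their part in the results below was not tested.

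Replicate 2 of the deprived CGRP group and replicate 2 of the 2-DG control group stand apart. On the second principal component, which holds 7.39% of the variance, they sit at 59.3 and 34.6, against -14.8 to 7.3 for the other 16 libraries. Relative to their group mates they are lower for long transcripts. With genes split into 4 equal classes by length, the median log2 ratio was 0.22 for the shortest class and -0.32 for the longest in the deprived CGRP library, and 0.14 and -0.22 in the 2-DG control library. ERN1, ATF6 and CREB3L2 are in the longest class, and in the deprived CGRP library they were at 0.583, 0.803 and 0.54 times the mean of their mates. XBP1, with a shorter transcript, was at 1.2 times and CREB3 at 1.23 times, while BHLHA15, in the shortest class, was at 0.585 times. Counts of members and of listed genes that passed are therefore also given without this pair of libraries.

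**Figure D1:**
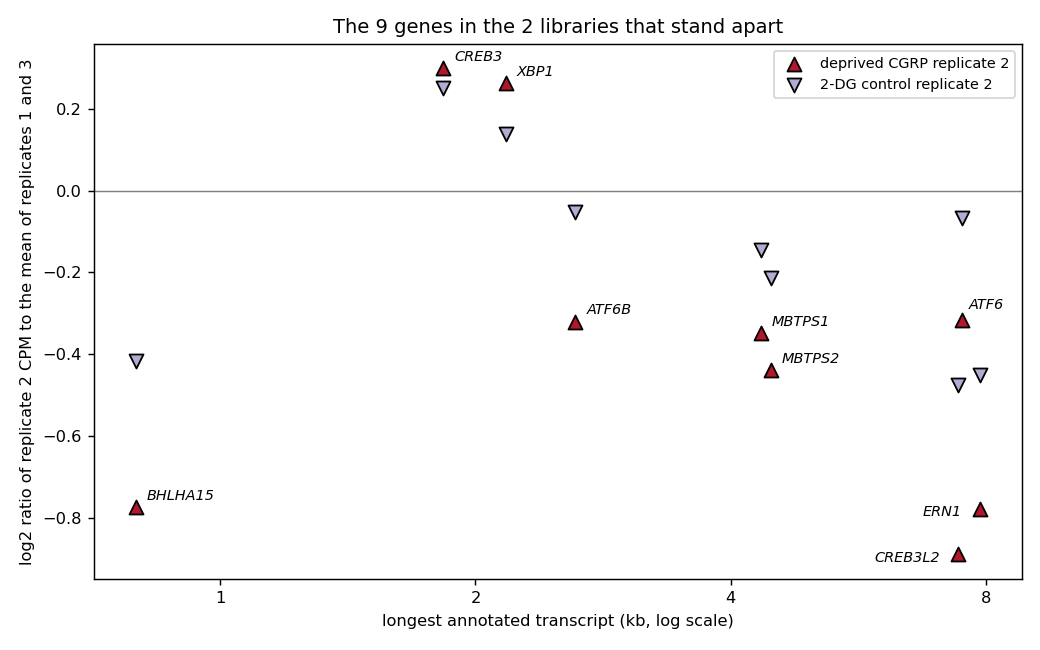
The log2 ratio of replicate 2 CPM to the mean of replicates 1 and 3 of its group (y axis) against the longest annotated transcript in kb (x axis, log scale), for the 9 genes in the deprived CGRP group and the 2-DG control group. XBP1 and CREB3 lie above 0 in both libraries, and the other 7 genes lie below 0 in both.

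Per kilobase of exon, XBP1 was the most abundant of the 9, at 52 CPM per kb averaged over the groups. CREB3 followed at 29.6 and ATF6B at 21.4, then MBTPS1 at 14.5, ATF6 at 8.87 and CREB3L2 at 8.72 CPM per kb. MBTPS2 at 5, ERN1 at 4.33 and BHLHA15 at 3.57 CPM per kb were lowest. The highest group mean exceeded the lowest 23.8-fold for BHLHA15, 4.75-fold for ERN1, 4.52-fold for XBP1, 2.35-fold for CREB3L2, 2.11-fold for ATF6 and 1.94-fold for CREB3. For MBTPS2, MBTPS1 and ATF6B that ratio was 1.28, 1.18 and 1.13. The groups thus lay close together for both protease genes and for ATF6B, and far apart for the other 6 genes.

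**Figure D2:**
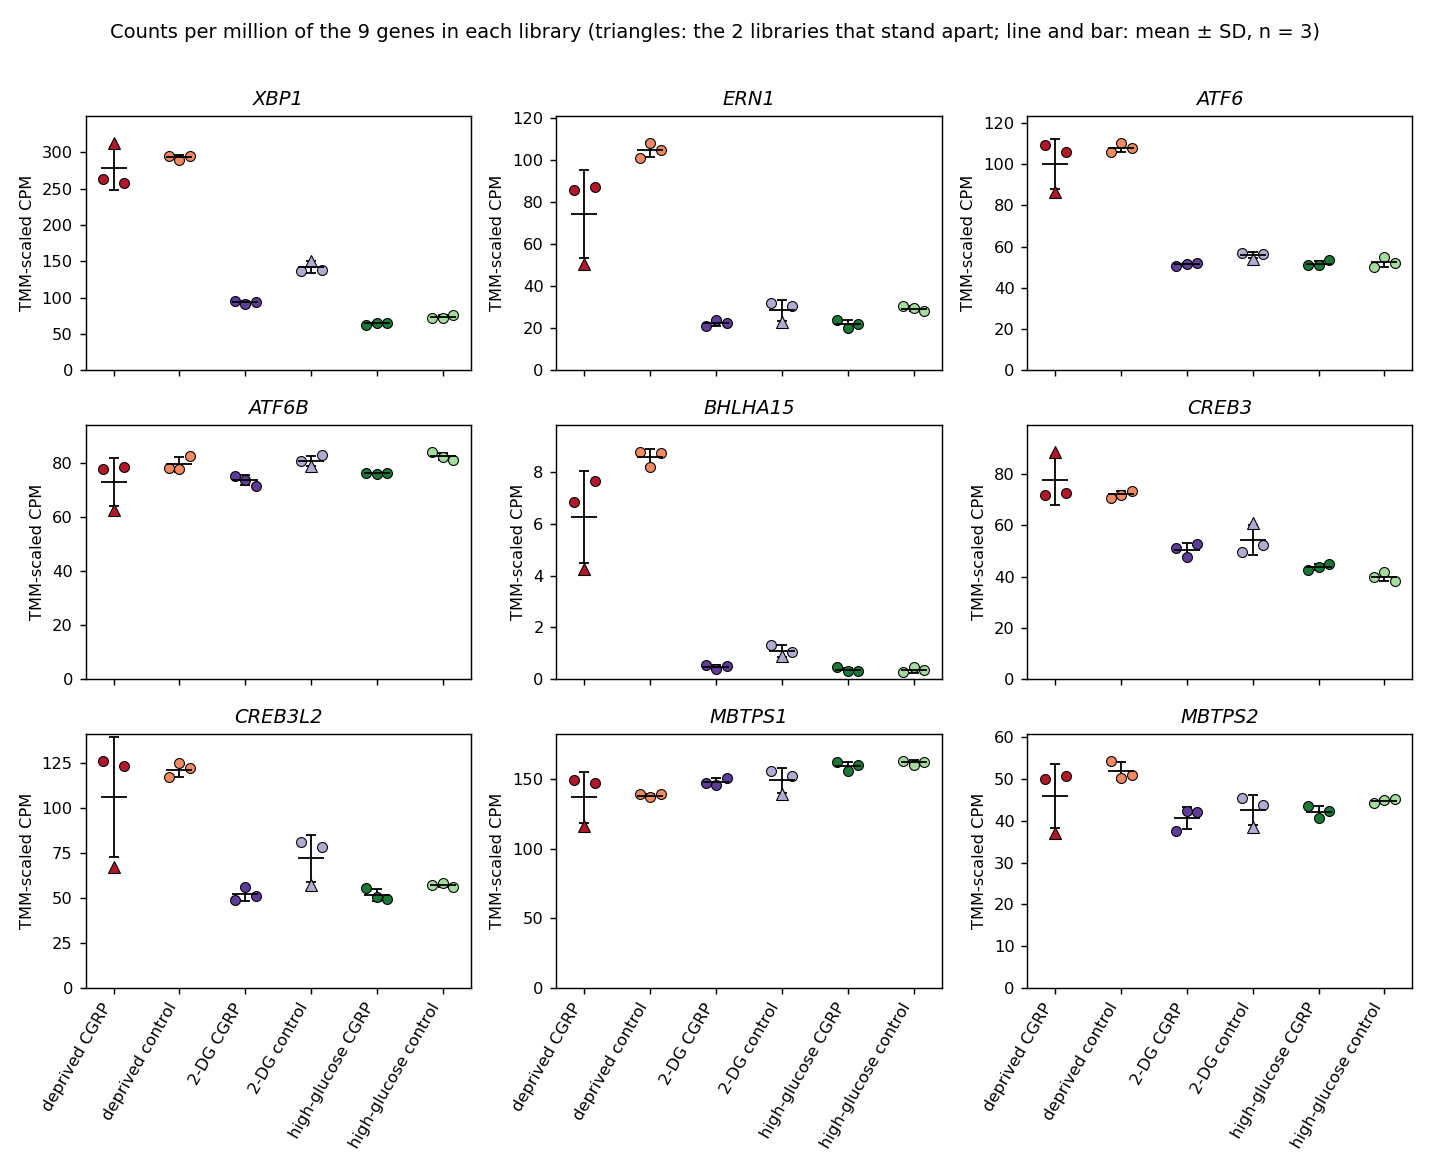
TMM-scaled CPM of each gene (y axis, from 0) in every library of the 6 groups (x axis). Points are libraries, triangles the 2 libraries that stand apart, lines and bars the mean ± SD of 3 libraries. XBP1, ERN1, ATF6, BHLHA15, CREB3 and CREB3L2 are highest in the deprived groups, while ATF6B and the protease genes MBTPS1 and MBTPS2 stay within a narrow range.

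The first question was what glucose deprivation did to these genes without CGRP. Of the 9, 6 rose (XBP1, ERN1, ATF6, BHLHA15, CREB3 and CREB3L2), MBTPS1 fell, and ATF6B and MBTPS2 did not pass. Over all genes tested 60.6% passed in this comparison, 31% higher and 29.6% lower, so the 7 of 9 that passed are near the background in number. The log2 fold changes of the 6 that rose ran from 0.85 in CREB3 to 4.55 in BHLHA15, beside a median of 0.02 over all genes.

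Among the sensors, ERN1 (ENSG00000178607, chromosome 17, 64039142 to 64130819, minus strand, GENCODE 29 on GRCh38 here and below) was at 101, 108 and 105 CPM in the deprived control libraries, against 30.5, 29.6 and 28.1 CPM in the high-glucose control libraries. The 2 groups are far apart, with little spread in either. The log2 fold change was 1.83 ± 0.16 (adjusted p = 5.5e-08, edgeR). ATF6 (ENSG00000118217, chromosome 1, 161766294 to 161964070, plus strand) was at 106, 110 and 108 CPM in deprived cells, against 50.1, 55 and 52 CPM in high glucose, a log2 fold change of 1.05 ± 0.07 (adjusted p = 1.6e-09, edgeR). ATF6B (ENSG00000213676, chromosome 6, 32115264 to 32128253, minus strand) was at 78.2, 78.1 and 82.9 CPM in deprived cells, against 84.2, 82.3 and 81.4 CPM in high glucose. These ranges overlap, and the log2 fold change of -0.05 (95% interval -0.20 to 0.09) bounds any difference well below that of its paralog ATF6. Exons of ATF6B overlap those of TNXB in the annotation, so part of its counts may belong to that gene.

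XBP1 (ENSG00000100219, chromosome 22, 28794555 to 28800597, minus strand) was at 295, 289 and 294 CPM in deprived control libraries, against 72.3, 71.9 and 76.6 CPM in high-glucose control libraries. Every deprived library was far above every library in high glucose (log2 fold change 1.99 ± 0.07, fold 3.97, adjusted p = 3.7e-13, edgeR). BHLHA15 (ENSG00000180535, chromosome 7, 98211427 to 98212979, plus strand) encodes MIST1, a factor of secretory cells that XBP1 is known to activate in mouse. It was at 8.76, 8.17 and 8.74 CPM, or 237 to 266 counts a library, in deprived cells, against 0.267, 0.476 and 0.337 CPM, or 8 to 15 counts, in high glucose. Its log2 fold change of 4.55 ± 0.25 (adjusted p = 1.2e-10, edgeR) rests on few counts in high glucose.

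CREB3 (ENSG00000107175, chromosome 9, 35732335 to 35737004, plus strand), also known as Luman, was at 70.8, 72 and 73.6 CPM in deprived cells, against 39.8, 41.7 and 38.5 CPM in high glucose (log2 fold change 0.85 ± 0.08, adjusted p = 1.8e-07, edgeR). Its exons overlap those of GBA2 and TLN1 on the opposite strand, and the strand setting of the counting is not given in the sources used here, so reads of these genes could not be told apart. CREB3L2 (ENSG00000182158, chromosome 7, 137874979 to 138002067, minus strand), a factor for secretory capacity in mouse cartilage, was at 117, 125 and 122 CPM in deprived cells, against 57.4, 58.3 and 55.8 CPM in high glucose. That is a log2 fold change of 1.09 ± 0.18 (adjusted p = 5.1e-05, edgeR). In both genes the groups do not overlap.

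The protease genes barely moved. MBTPS1 (ENSG00000140943, chromosome 16, 84053761 to 84116906, minus strand) was at 139, 137 and 139 CPM in deprived cells, against 163, 160 and 162 CPM in high glucose, and fell by 0.22 on the log2 scale (adjusted p = 0.014, edgeR). MBTPS2 (ENSG00000012174, chromosome X, 21839636 to 21885424, plus strand) was at 54.4, 50.3 and 51.1 CPM in deprived cells, against 44.2, 45 and 45.2 CPM in high glucose. Its libraries do not overlap, but the log2 fold change of 0.21 ± 0.10 did not pass (adjusted p = 0.064, edgeR, 95% interval 0.01 to 0.42). Neither library that stands apart is in these groups, but both enter the shared estimate of spread, and without them all 9 genes passed, against 72.4% of all genes.

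With CGRP in both media, XBP1, ERN1, ATF6, BHLHA15, CREB3 and CREB3L2 rose, MBTPS1 fell by 0.21 and ATF6B and MBTPS2 did not pass. The share of all genes passing was 60.4%, with 31.9% higher and 28.5% lower. XBP1 was at 263, 312 and 258 CPM in deprived CGRP libraries, against 62.9, 65.6 and 65.6 CPM in high-glucose CGRP libraries, a log2 fold change of 2.10 ± 0.07 (adjusted p = 1.9e-13, edgeR). ERN1 was at 85.8, 50.5 and 87.3 CPM in deprived CGRP libraries, against 23.8, 20.4 and 22.1 CPM in high-glucose CGRP libraries. The value of 50.5 CPM is that of the library that stands apart, and it is still above every high-glucose library. BHLHA15, at 6.25 ± 1.78 CPM in deprived CGRP cells and 0.363 ± 0.083 CPM in high-glucose CGRP cells (SD, n = 3 each), had a log2 fold change of 4.09 ± 0.25 (adjusted p = 5.0e-10, edgeR). ATF6 was at 0.96, CREB3L2 at 1.03 and CREB3 at 0.83 on the log2 scale, and ATF6B at -0.06 and MBTPS2 at 0.12. The call of MBTPS1 was lost without replicate 1 of the high-glucose CGRP group (-0.20, adjusted p = 0.058, edgeR) and with only the groups compared in the fit (-0.25, adjusted p = 0.11). With the pair of libraries left out 8 of the 9 passed, against 69.9% of all genes.

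The 2-DG medium moved fewer of the genes. Without CGRP, XBP1, BHLHA15 and CREB3 rose and the other 6 did not pass, where 13.8% of all genes passed and 7.99% passed higher. This comparison shares its high-glucose control libraries with the one for deprivation. XBP1 was at 137, 151 and 138 CPM in 2-DG control libraries, against 72.3, 71.9 and 76.6 CPM in high-glucose control libraries (log2 fold change 0.95 ± 0.07, adjusted p = 1.6e-07, edgeR). The 3 libraries with 2-DG are all above those without it.

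BHLHA15 was at 1.32, 0.89 and 1.05 CPM with 2-DG, or 26 to 43 counts, against 0.267, 0.476 and 0.337 CPM in high glucose, a log2 fold change of 1.59 ± 0.32 (adjusted p = 0.0029, edgeR). CREB3 was at 49.8, 61 and 52.5 CPM with 2-DG, against 39.8, 41.7 and 38.5 CPM in high glucose, a log2 fold change of 0.44 ± 0.08 (adjusted p = 0.0018, edgeR). ERN1 was at 31.9, 23 and 30.9 CPM with 2-DG, against 30.5, 29.6 and 28.1 CPM in high glucose, and these ranges overlap. Its log2 fold change of -0.04 has a 95% interval of -0.39 to 0.31, which leaves out a change of the size seen in deprivation, and it was 0.09 without the pair of libraries, where it did not pass either. ATF6, at 0.09 ± 0.07 on the log2 scale (95% interval -0.06 to 0.25), likewise stayed far below its value of 1.05 in deprivation. ATF6B at -0.03, MBTPS1 at -0.12 and MBTPS2 at -0.07 did not pass.

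CREB3L2 was at 80.9, 57.2 and 78.1 CPM with 2-DG, against 57.4, 58.3 and 55.8 CPM in high glucose. The low value is that of the library that stands apart, the other 2 are above all high-glucose libraries, and the log2 fold change of 0.33 ± 0.17 did not pass (adjusted p = 0.24, edgeR). With the pair left out its log2 fold change was 0.47 ± 0.05 (adjusted p = 1.8e-09, edgeR), and that of ATF6 was 0.11 ± 0.04 (adjusted p = 0.036, edgeR). Then 5 of the 9 passed, against 32.5% of all genes.

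Set directly against the deprived control libraries, the 2-DG control libraries were lower in 7 of the 9 genes and higher in none, where 57.5% of all genes passed and 28.6% passed lower. The differences on the log2 scale were -2.96 ± 0.20 for BHLHA15, -1.87 ± 0.16 for ERN1, -1.04 ± 0.06 for XBP1, -0.95 ± 0.07 for ATF6, -0.75 ± 0.17 for CREB3L2, -0.41 ± 0.08 for CREB3 and -0.29 ± 0.10 for MBTPS2. Adjusted p-values of these 7 in edgeR ran from 8.5e-10 to 0.017. ATF6B and MBTPS1 did not pass, at 0.02 and 0.11. The call of MBTPS2 was lost without replicate 1 of the deprived control group (adjusted p = 0.086, edgeR) and without replicate 2 of the 2-DG control group (adjusted p = 0.11). With the pair of libraries left out 8 passed, against 66.8% of all genes.

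With CGRP in both media, XBP1 was the only member that rose with 2-DG, where 2.39% of all genes passed and 1.52% passed higher. It was at 96, 91.9 and 93.9 CPM in 2-DG CGRP libraries, against 62.9, 65.6 and 65.6 CPM in high-glucose CGRP libraries (log2 fold change 0.54 ± 0.06, adjusted p = 2.9e-04, edgeR). BHLHA15 was at 0.556, 0.386 and 0.493 CPM in 2-DG CGRP libraries, against 0.459, 0.313 and 0.318 CPM in high-glucose CGRP libraries, and these ranges overlap. CREB3 was at 51.1, 47.5 and 52.8 CPM in 2-DG CGRP libraries, against 42.8, 43.6 and 44.8 CPM in high-glucose CGRP libraries, with no overlap but an adjusted p of 0.25 in edgeR. The other 6 had log2 fold changes from -0.11 in MBTPS1 to 0.03 in ERN1, with ATF6 at -0.01, ATF6B and MBTPS2 at -0.05 and CREB3L2 at 0.01. Leaving out the pair of libraries, CREB3 passed at 0.20 ± 0.04 and MBTPS1 at -0.12 ± 0.03, so that 3 passed, against 19.5% of all genes.

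**Figure D3:**
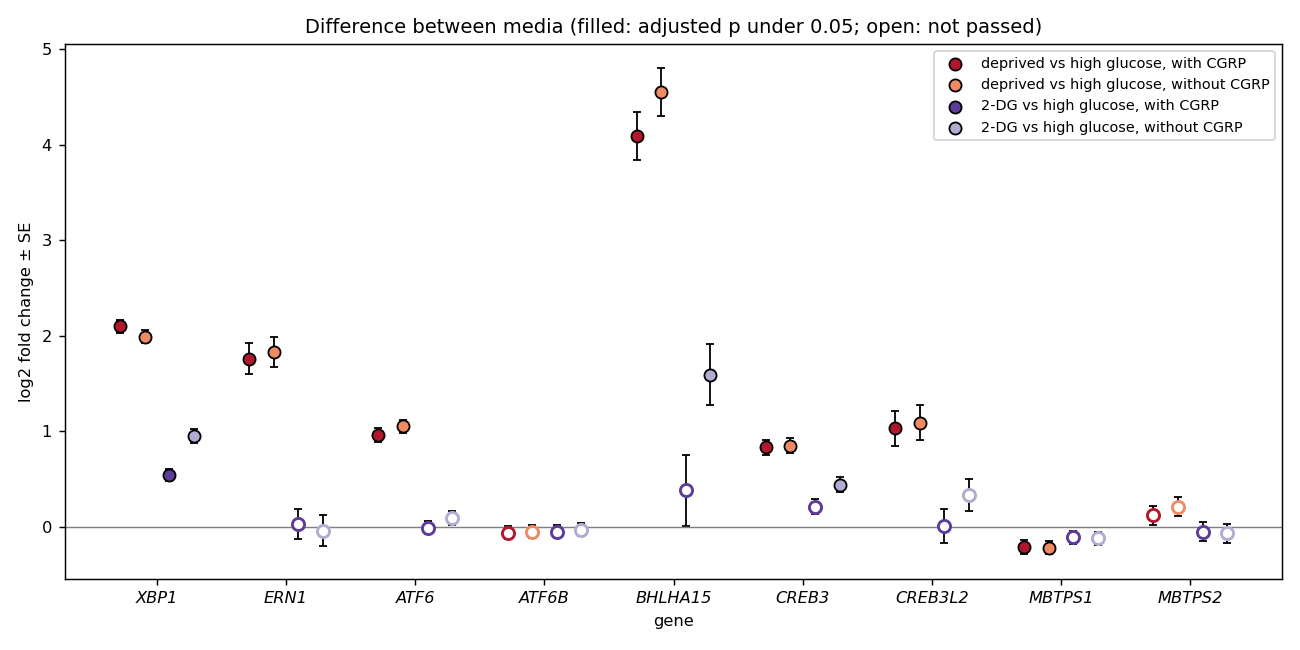
Log2 fold change ± SE (y axis) of the 9 genes (x axis) in deprived and in 2-DG medium, each against high glucose, with and without CGRP. Filled points passed the edgeR test at an adjusted p under 0.05. ERN1 and ATF6 are at 1.83 and 1.05 in deprivation and near 0 in 2-DG medium without CGRP, while XBP1 is above 0 in all 4 comparisons.

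CGRP was then compared with its control within each medium. In 2-DG medium XBP1 and BHLHA15 fell and no member rose, where 12.2% of all genes passed and 6.89% passed lower. XBP1 was at 96, 91.9 and 93.9 CPM with CGRP, against 137, 151 and 138 CPM without it. Every CGRP library is below every control library, and the log2 fold change was -0.60 ± 0.06 (fold 0.661, adjusted p = 1.7e-05, edgeR). It was -0.55 ± 0.03 without the 2 libraries that stand apart. BHLHA15 was at 0.556, 0.386 and 0.493 CPM with CGRP, or 12 to 16 counts, against 1.32, 0.89 and 1.05 CPM without it.

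The log2 fold change of BHLHA15 was -1.19 ± 0.30 (adjusted p = 0.015, edgeR). It did not pass without replicate 1 of the 2-DG control group (adjusted p = 0.068, edgeR) or without replicate 2 of the 2-DG CGRP group (adjusted p = 0.073). CREB3L2 was at 48.9, 56.2 and 50.9 CPM with CGRP, against 80.9, 57.2 and 78.1 CPM without it, a difference of -0.47 ± 0.17 on the log2 scale that did not pass (adjusted p = 0.097, edgeR). All 3 CGRP libraries are below the lowest control library, which is the one that stands apart. ERN1 was at 21.1, 24 and 22.5 CPM with CGRP, against 31.9, 23 and 30.9 CPM without it, and overlaps only through that same library. The other log2 fold changes that did not pass were -0.34 for ERN1, -0.12 for ATF6, -0.14 for ATF6B, -0.11 for CREB3, -0.07 for MBTPS2 and -0.01 for MBTPS1.

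When the pair was left out, 7 of the 9 passed lower with CGRP in 2-DG medium, against 28.4% of all genes passing in either direction. These were BHLHA15 at -1.31 ± 0.26, CREB3L2 at -0.61 ± 0.05, XBP1 at -0.55 ± 0.03, ERN1 at -0.47 ± 0.06, ATF6B at -0.15 ± 0.04, ATF6 at -0.14 ± 0.04 and MBTPS2 at -0.13 ± 0.05. Leaving out the deprived CGRP library alone gave 6 such genes. In that setting 3853 of all genes passed in either direction, against 2216 with all libraries.

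In deprived medium ERN1 fell with CGRP and the other 8 did not pass, where 13% of all genes passed and 6.58% passed lower. ERN1 was at 85.8, 50.5 and 87.3 CPM with CGRP, against 101, 108 and 105 CPM without it, a log2 fold change of -0.49 ± 0.16 with an adjusted p of 0.049 (edgeR). The groups do not overlap, and the lowest value is again that of the library that stands apart. The call was lost under 20 of 26 alternatives. Without both libraries its difference was -0.27 ± 0.04 (adjusted p = 1.2e-05, edgeR). In that fit XBP1, at 263 and 258 CPM with CGRP, against 295, 289 and 294 CPM without it, also passed at -0.16 ± 0.03, and MBTPS1 at 0.10 ± 0.03. Then 3 of the 9 passed, against 28.7% of all genes. With all libraries, the 8 that did not pass were BHLHA15 at -0.45, CREB3L2 at -0.20, MBTPS2 at -0.18, ATF6B at -0.13, ATF6 at -0.11, XBP1 at -0.08, MBTPS1 at -0.01 and CREB3 at 0.11.

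In high glucose none of the 9 passed with CGRP at an adjusted p under 0.05 in edgeR, where 4.33% of all genes did. At an unadjusted p under 0.05 there were 2, XBP1 and ERN1, and DESeq2 called 0. The share of all genes at that unadjusted cutoff was not taken, so these 2 cannot be set against a background. XBP1 was at 62.9, 65.6 and 65.6 CPM with CGRP, against 72.3, 71.9 and 76.6 CPM without it, and ERN1 at 23.8, 20.4 and 22.1 CPM with CGRP, against 30.5, 29.6 and 28.1 CPM without it. In both genes every CGRP library is below every control library, at -0.19 ± 0.06 (adjusted p = 0.14, edgeR) and -0.41 ± 0.16 (adjusted p = 0.22, edgeR) on the log2 scale. The other 7 ran from -0.15 in CREB3L2 and -0.12 in ATF6B to 0.13 in CREB3, with MBTPS2 at -0.09, ATF6 and MBTPS1 at -0.02 and BHLHA15 at 0.01. With the pair left out, neither of which is in this medium, 5 of the 9 passed, against 19.1% of all genes. XBP1 was then at -0.18 ± 0.03, ERN1 at -0.41 ± 0.05, CREB3L2 at -0.14 ± 0.05, ATF6B at -0.11 ± 0.03 and CREB3 at 0.14 ± 0.04.

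The effect of CGRP was also compared between media as an interaction. None of the 9 passed for deprived minus high glucose, where 1.55% of all genes did, and none for 2-DG minus high glucose, where 0.391% did (edgeR). The difference of XBP1 for 2-DG was -0.41 ± 0.09 (adjusted p = 0.071, edgeR), and that of BHLHA15 was -1.20 ± 0.50 (adjusted p = 0.48, edgeR). At an unadjusted p under 0.05 there were 0 members for deprivation and these 2 for 2-DG, and DESeq2 called 0 and 1. The share of all genes at that unadjusted cutoff was not taken here either. For ERN1 the difference for 2-DG was 0.07 with a 95% interval of -0.43 to 0.57. The other 6 were at -0.32 (CREB3L2), -0.24 (CREB3), -0.11 (ATF6), -0.02 (ATF6B), 0.01 (MBTPS1) and 0.02 (MBTPS2). For deprivation the 9 ran from -0.46 in BHLHA15 to 0.11 in XBP1, with ATF6 and MBTPS2 at -0.09, ERN1 at -0.08, CREB3L2 at -0.06, CREB3 at -0.02, ATF6B at -0.01 and MBTPS1 at 0.01. After leaving out the pair, XBP1 passed at -0.37 ± 0.05 (adjusted p = 4.5e-07, edgeR) and CREB3L2 at -0.47 ± 0.07 (adjusted p = 7.9e-06, edgeR) for 2-DG, against 5.91% of all genes, and CREB3L2 alone for deprivation, against 13.5%.

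**Figure D4:**
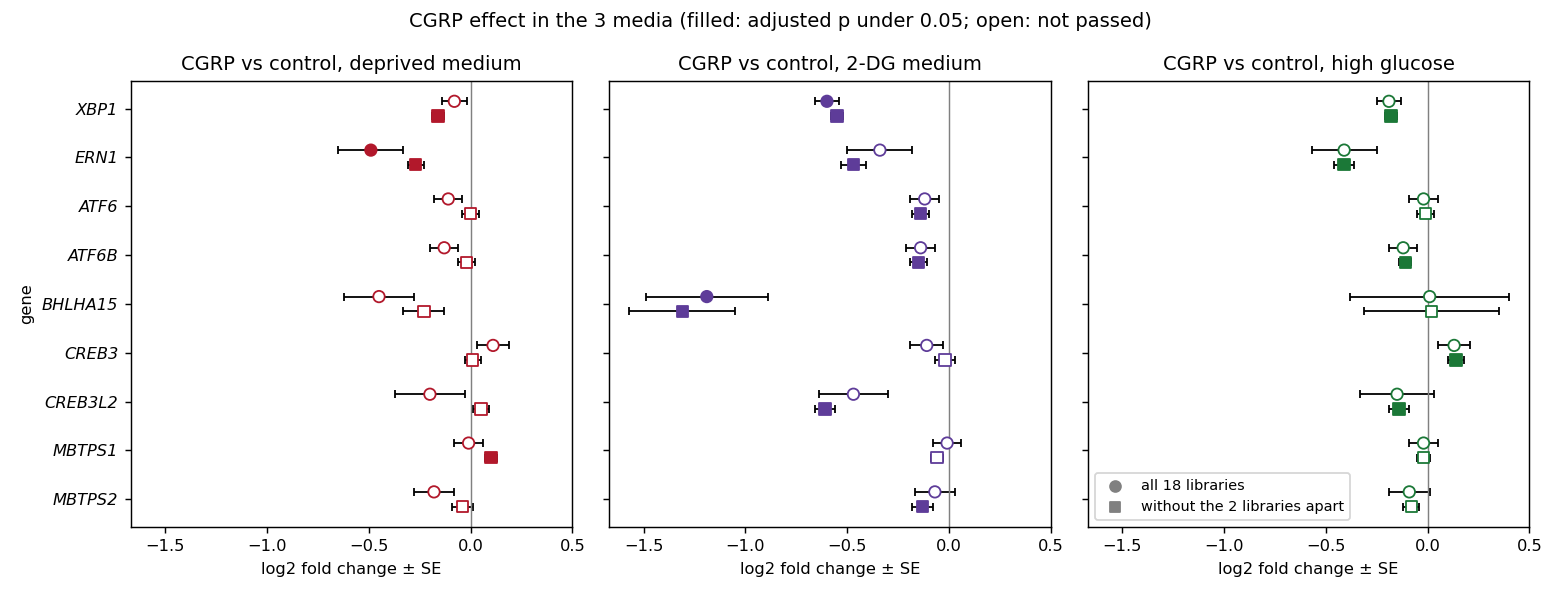
Log2 fold change ± SE (x axis) of the CGRP libraries against their controls, by medium, for the 9 genes (y axis), with all 18 libraries (circles) and without the 2 libraries that stand apart (squares). Filled symbols passed the edgeR test at an adjusted p under 0.05. XBP1 lies below 0 in all 3 panels, at -0.60 in 2-DG medium, -0.19 in high glucose and -0.08 in deprived medium with all libraries.

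Genes that act next to the 9 were taken from lists of known roles, which overlap in HYOU1, EDEM1, DNAJB11, HERPUD1 and SEC24D. Their counts with the pair of libraries left out stand beside the larger shares of all genes passing in that setting, from 72.4% for deprivation and 32.5% for 2-DG to 28.4%, 28.7% and 19.1% for CGRP in 2-DG, deprived and high-glucose medium. XBP1 targets, 32 genes of ER translocation, folding and transport, rose in 30 cases with deprivation and fell in none, with a median log2 fold change of 1.09, against 0.02 for all genes. Over all genes 31% passed higher in this comparison. DNAJB9, an ER co-chaperone also called ERdj4, averaged 94.9 ± 3.37 CPM in deprived cells and 12.8 ± 0.236 CPM in high glucose (SD, n = 3 each), a log2 fold change of 2.90 ± 0.06. TRAM1 and SEC61A1, of the translocation channel, rose by 2.14 ± 0.04 and 1.69 ± 0.04. With 2-DG 27 of the 32 rose and none fell, at a median of 0.56, against 0.01 for all genes. The share of all genes passing higher was 7.99%. DNAJB9 was at 26.3 ± 0.268 CPM with 2-DG and 12.8 ± 0.236 CPM in high glucose (SD, n = 3 each), a rise of 1.04 ± 0.06. With the pair of libraries left out 31 and 30 rose.

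ATF6 targets, 20 genes of which 19 were tested and 1 is XBP1 itself, rose in all 19 cases with deprivation, at a median of 2.16. The share of all genes passing higher was 31%. HSPA5 encodes BiP, the main ER chaperone of the HSP70 family. It was at 20564, 20837 and 20386 CPM in deprived control libraries, against 926, 918 and 924 CPM in high-glucose control libraries. The mean was 22.3-fold higher in deprived cells, and the log2 fold change was 4.48 ± 0.08 (adjusted p = 7.4e-16, edgeR). HERPUD1, of ER-associated degradation, was at 279, 283 and 278 CPM in deprived cells, against 28.6, 27.6 and 28.8 CPM in high glucose (log2 fold change 3.31 ± 0.06). With 2-DG 15 of 19 rose and none fell, at a median of 0.79, where 7.99% of all genes passed higher. HSPA5 was then at 2201, 2437 and 2164 CPM, against the same high-glucose libraries, a rise of 1.30 ± 0.07. HERPUD1 rose by 1.05 ± 0.06. The counts with the pair left out were 19 and 18.

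These outputs followed the media in the other comparisons too. Set against the deprived controls, the 2-DG controls were lower in all 3, with log2 fold changes of -3.18 ± 0.08 for HSPA5, -2.26 ± 0.06 for HERPUD1 and -1.85 ± 0.06 for DNAJB9. With CGRP in both media, deprivation gave log2 fold changes of 4.29 ± 0.08 for HSPA5, 3.35 ± 0.06 for HERPUD1 and 2.80 ± 0.06 for DNAJB9, and 30 of 32 XBP1 targets and 19 of 19 ATF6 targets rose (30 and 19 with the pair left out). The share of all genes passing higher was 31.9%. With CGRP in both media, 2-DG gave 0.47 ± 0.07, 0.77 ± 0.06 and 0.56 ± 0.06 for HSPA5, HERPUD1 and DNAJB9, all 3 of which passed. Of the lists, 12 of 32 XBP1 targets (median 0.23) and 7 of 19 ATF6 targets (median 0.25) then rose and none fell, and 25 and 16 did with the pair of libraries left out. Over all genes 1.52% passed higher, and 19.5% passed in either direction with the pair left out.

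With CGRP in 2-DG medium 23 of 32 XBP1 targets fell and none rose, at a median of -0.35, against -0.01 for all genes. Of the 19 ATF6 targets 13 fell and 1 rose, at a median of -0.46. Over all genes 6.89% passed lower. HSPA5 was at 1444, 1373 and 1362 CPM with CGRP, against 2201, 2437 and 2164 CPM without it (log2 fold change -0.70 ± 0.07, adjusted p = 9.6e-06, edgeR). DNAJB9 was at 19.3, 18.3 and 17.2 CPM with CGRP, against 26.1, 26.1 and 26.6 CPM without it (-0.52 ± 0.06), and HERPUD1 at 47.5, 46.4 and 46.5 CPM with CGRP, against 59.4, 61.9 and 54.3 CPM without it (-0.32 ± 0.06). In all 3 genes the CGRP libraries lie below the control libraries. SSR3, of the translocon-associated complex, fell to 723 ± 10.4 CPM with CGRP, against 1103 ± 17.2 CPM without it (SD, n = 3 each). The counts that fell were 27 and 17 with the pair of libraries left out.

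In the other media fewer genes of these lists passed with CGRP. In deprived medium 3 XBP1 targets fell and none rose (median -0.04), and 2 ATF6 targets rose and 1 fell (median -0.02). Over all genes 13% passed there and 6.58% passed lower, so these counts are near the background. HSPA5 differed by -0.07, DNAJB9 by -0.14 and HERPUD1 by -0.01, and none of the 3 passed. With the pair left out 13 XBP1 targets fell and 1 rose, and 9 ATF6 targets fell and 4 rose, HSPA5 passing at -0.16 (adjusted p = 2.4e-05, edgeR) and DNAJB9 at -0.12 (adjusted p = 0.031, edgeR). In high glucose 1 XBP1 target, TRAM1, rose by 0.17 ± 0.04 and no ATF6 target passed, where HSPA5 was at 988, 1007 and 1013 CPM with CGRP, against 926, 918 and 924 CPM without it, a difference of 0.12 ± 0.07 that did not pass. DNAJB9 at -0.05 and HERPUD1 at -0.04 did not pass there either, where 4.33% of all genes passed. With the pair left out 4 XBP1 targets rose and 6 fell there, and 4 ATF6 targets rose and 3 fell, HSPA5 passing at 0.13 (adjusted p = 2.3e-04, edgeR). The interaction of CGRP with 2-DG was negative in 10 XBP1 targets and 4 ATF6 targets, and positive in none, and in 22 and 17 with the pair left out. Over all genes 0.391% passed this interaction, and 5.91% did with the pair left out. The interaction was -0.28 for HERPUD1, which did not pass, and -0.24 with the pair left out, which did (adjusted p = 0.0072, edgeR). For deprivation, the interactions of HSPA5 (-0.19), DNAJB9 (-0.10) and HERPUD1 (0.04) did not pass, and with the pair left out that of HSPA5 passed at -0.28 (adjusted p = 5.8e-07, edgeR).

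IRE1 also degrades some mRNAs directly (RIDD), and substrates are known mainly from other cell lines and from mouse. Of 14 tested, 9 fell and 3 rose with deprivation, at a median of -0.94. The 3 that rose were TNFRSF10B by 1.27, HGSNAT by 0.27 and RTN4 by 0.21 on the log2 scale. SPARC, a matrix protein gene, was at 102 ± 5.33 CPM in deprived cells and 290 ± 5.22 CPM in high glucose (log2 fold change -1.51 ± 0.05), and SCARA3 at 0.75 ± 0.353 CPM in deprived cells and 6.59 ± 1.17 CPM in high glucose (-3.12 ± 0.21, SD, n = 3 each). In 2-DG medium 3 fell and none rose, at a median of -0.09, and the 3 were PER1, ST3GAL5 and DGAT2, where 13.8% of all genes passed. With the pair of libraries left out 3 rose and 5 fell in 2-DG medium, and 3 rose and 9 fell with deprivation. A fall in level does not tell decay from reduced transcription. Over all genes 60.6% passed and 29.6% fell in deprivation.

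Of the 13 tested partners of IRE1 and of the splicing ligase, 4 rose and 4 fell with deprivation, near the 60.6% of all genes that passed, and 7 rose and 5 fell with the pair of libraries left out. In 2-DG medium 3 rose and none fell, where 7.99% of all genes passed higher, and 3 rose and 3 fell with the pair left out. AGR2, a protein disulfide isomerase of secretory epithelium, was at 211 ± 8.06 CPM in deprived cells and 7.29 ± 0.391 CPM in high glucose (SD, n = 3 each), a log2 fold change of 4.85 ± 0.18. With 2-DG it was at 44.9 ± 8.61 CPM, a rise of 2.62 ± 0.17. TRAF2, an adaptor bound by active IRE1, fell by 0.70 with deprivation. AGR2 moved with CGRP in opposite directions: it rose by 0.74 ± 0.17 in high glucose and by 0.79 ± 0.15 in deprived medium, and fell by 1.08 in 2-DG medium (0.55 and -0.91 in deprived and 2-DG medium with the pair of libraries left out), where it was at 21.2 ± 1.82 CPM with CGRP and 44.9 ± 8.61 CPM without it (SD, n = 3 each).

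Of 10 tested CREB3 relatives and other substrates of the site-1 and site-2 proteases, 3 rose and 5 fell with deprivation, where 31% of all genes passed higher and 29.6% lower, and 3 rose and 6 fell with the pair left out. In 2-DG medium 1 fell and none rose, where 13.8% of all genes passed, and 2 rose and 3 fell with the pair left out. SREBF1 and SREBF2, the lipid regulators that the same proteases release, fell by 1.16 and 1.09 with deprivation. With 2-DG SREBF1 fell by 0.31, and SREBF2 did not pass at -0.22. SREBF1 rose with CGRP in each medium, by 0.49 ± 0.05 in deprived medium, 0.30 ± 0.05 in 2-DG medium and 0.39 ± 0.05 in high glucose. Of 11 targets of CREB3 and CREB3L2, 9 rose with deprivation and 7 with 2-DG, and none fell in either, against 31% and 7.99% of all genes passing higher. Leaving out the pair gave 9 and 11 that rose. HERPUD1, EDEM1 and SEC24D of this list also stand in those of XBP1 or ATF6 targets, so the lists are not separate evidence. SEC24D, a coat protein of vesicles that leave the ER, was at 89.2 ± 2.61 CPM in deprived cells, 70.9 ± 6.96 CPM with 2-DG and 40.7 ± 1.23 CPM in high glucose (SD, n = 3 each). Of the 11, 4 fell with CGRP in 2-DG medium, among them SEC24D by 0.37, against 6.89% of all genes passing lower, and 9 fell with the pair left out.

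The list named PERK arm, 12 genes, is set beside these branches. It also holds EIF2S1 and the genes of kinases other than PERK, EIF2AK1, EIF2AK2 and EIF2AK4. With deprivation EIF2AK1, EIF2AK2, EIF2AK4 and EIF2S1 were at -0.01, -0.11, -0.08 and -0.04 and did not pass. They lower the median of the list in that comparison. With deprivation 8 rose and none fell, at a median of 1.34 (8 rose and 3 fell with the pair left out), where 31% of all genes passed higher, and TRIB3, a pseudokinase gene induced by ATF4, was at 497 ± 2.51 CPM in deprived cells and 37.8 ± 0.673 CPM in high glucose (SD, n = 3 each). With 2-DG 1 rose, TRIB3 by 0.65 ± 0.08, and 1 fell, ATF3 by 0.36, at a median of 0.05, where 13.8% of all genes passed, and 3 rose and 1 fell with the pair left out. With CGRP 5 of the 12 fell in 2-DG medium, 4 in deprived medium and 6 in high glucose, and none rose, where 12.2%, 13% and 4.33% of all genes passed in those media. With the pair left out 11 fell in 2-DG medium, 8 in deprived medium and 9 in high glucose. CHAC1, which breaks down glutathione, was at 2.03 ± 0.369 CPM with CGRP and 4.41 ± 0.336 CPM without it in 2-DG medium, and at 1.77 ± 0.271 CPM with CGRP and 5.18 ± 0.631 CPM without it in high glucose (SD, n = 3 each).

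**Figure D5:**
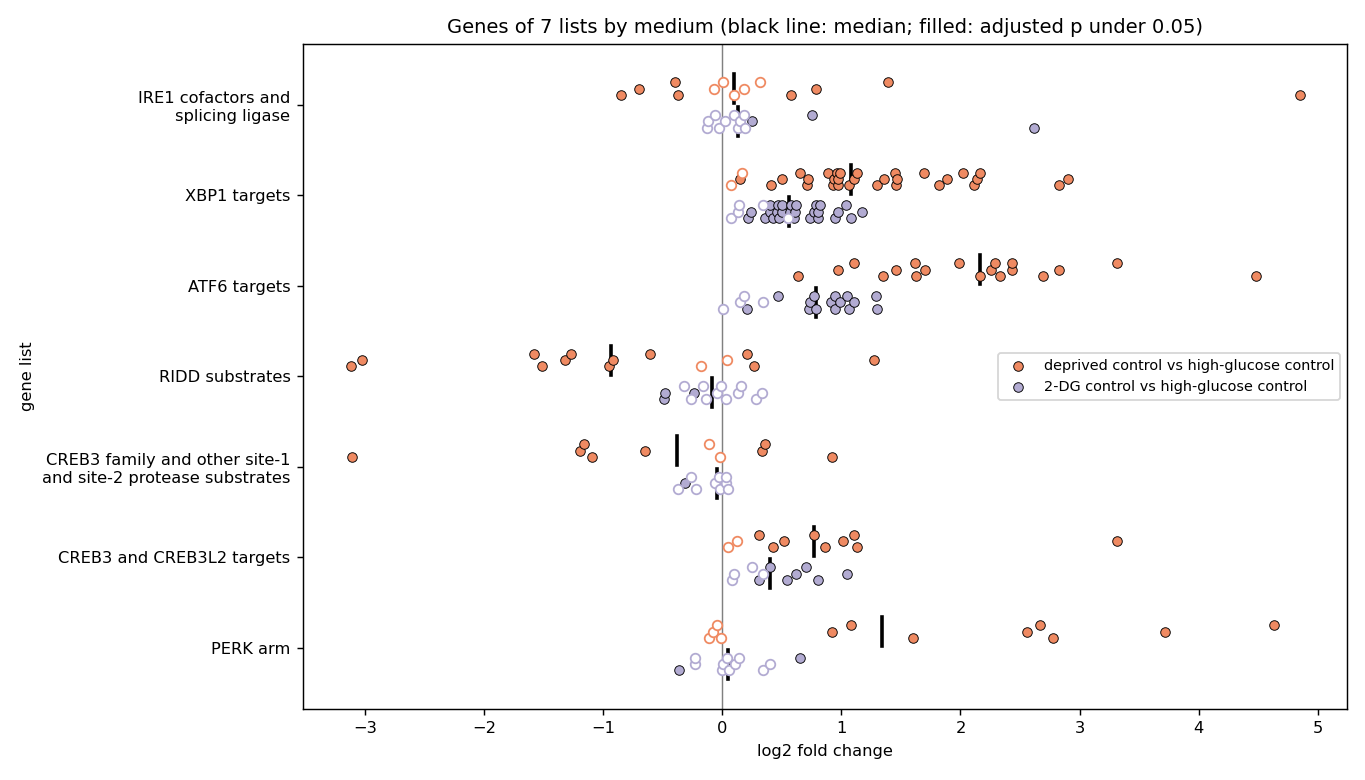
Log2 fold change (x axis) of the tested genes of 7 lists (y axis) in deprived and in 2-DG medium without CGRP, each against high glucose. Each point is a gene, filled where it passed the edgeR test, and black lines are medians. The medians of XBP1 targets are 1.09 and 0.56 and of ATF6 targets 2.16 and 0.79. The PERK arm list, which also holds EIF2AK1, EIF2AK2, EIF2AK4 and EIF2S1, is at 1.34 and 0.05.

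Likeness across all 18 libraries was taken as Pearson's r of log2 CPM over 12483 candidate genes. These values are descriptive, since groups, depth and the 2 libraries that stand apart are shared by all genes. The genes most like XBP1 were SSR3 (0.996), PLPP5 (0.996), RPN1 (0.996), UFM1 (0.995) and CCDC47 (0.994). SSR3, RPN1 and CCDC47 encode ER membrane proteins of translocation, glycosylation and membrane insertion. Those most like ERN1 were TNFRSF10B (0.996), HDAC9 (0.995), IBTK (0.995), E2F7 (0.993) and APBB2 (0.993). TNFRSF10B encodes the death receptor DR5, and is a listed RIDD substrate that rose by 1.27 with deprivation. Among the members, BHLHA15 (0.97), CREB3 (0.96) and ATF6 (0.92) were most like XBP1, and MBTPS2 (0.48), ATF6B (-0.17) and MBTPS1 (-0.77) least. For ERN1 they were ATF6 (0.98), CREB3L2 (0.96) and BHLHA15 (0.95), and CREB3 (0.78), ATF6B (0.09) and MBTPS1 (-0.49).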

How the data were processed

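RNA of 18 Cal27 samples was extracted with Trizol and sequenced on Illumina libraries, per the labels' protocols. The authors deposited 1 table of raw counts per gene and library, and aligned reads with HISAT2 2.0.4, per the submitters' processing notes, which name both hg19 and GRCh38. Nothing in the sources used here gives the counting program, annotation, strand setting or build behind the counts, so gene positions and lengths are from GENCODE 29 and promoters from RefSeq, both on GRCh38. Symbols were found for 42013 of 60683 IDs.

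In R 4.3.3, edgeR 4.0.16 was run on all 18 libraries: filterByExpr (at least 10 counts, 15 in total), TMM factors, 1 coefficient for each of 6 groups and robust quasi-likelihood F tests. This leaves 12 residual degrees of freedom, at a biological coefficient of variation of 9.44% (common dispersion). The 10 comparisons were each adjusted by Benjamini-Hochberg over 18159 genes. The SE is the log2 fold change over the root of F, and 95% intervals use it with 12 degrees of freedom. Likeness used log2 CPM with a pseudocount of 2 and genes with a mean of at least 1. The test was checked on simulated counts for deprivation without CGRP only, with levels and spread taken from the high-glucose libraries. The simulation held nothing like the libraries that stand apart, so it cannot speak for the calls that they move. Totals of 28038260 to 32661768 counts leave 8 members at 608 or more counts in every library, and BHLHA15 at 8 to 266.

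Every member is given in every comparison. Genes given with levels or fold changes from a list are among the 4 that passed with the smallest adjusted p in a comparison of media (3 elsewhere). HSPA5, DNAJB9 and HERPUD1 are given in every comparison. Outside this rule, EIF2AK1, EIF2AK2, EIF2AK4 and EIF2S1 are given because they lower the median of the PERK arm list. The RIDD substrates that rose with deprivation are also given whatever their rank. Members and lists were chosen with earlier results of these data known. Alternatives were DESeq2 1.42.0 size factors and its Wald test, total-count scaling, no filter and a stricter one, only the groups compared, a replicate block, each library left out, and both libraries that stand apart left out.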

Additional observations from a re-analysis of the deposited data

Results flagged for a closer look

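Among the genes named from the lists, 13 had an effect of CGRP that differed between a medium and high glucose by the edgeR interaction test. None of the 9 members did. For 2-DG the named genes are only part of the list genes that passed, which include 10 XBP1 targets and 4 ATF6 targets. For 2-DG minus high glucose the differences on the log2 scale were -1.82 ± 0.23 for AGR2 (adjusted p = 0.0023), -0.82 ± 0.10 for HSPA5 (adjusted p = 0.002), -0.66 ± 0.06 for TRAM1, -0.54 ± 0.08 for DNAJB11, -0.49 ± 0.06 for SEC61A1, -0.48 ± 0.09 for DNAJB9 (adjusted p = 0.026), -0.46 ± 0.06 for SSR1, -0.43 ± 0.06 for PDIA4 and -0.37 ± 0.06 for TMED2. All 9 are genes of ER folding, translocation or transport. Nearly all came from lists of such genes, chosen with earlier results known, so that trait was largely set by the choice. Over all genes 0.391% passed this interaction. Without the 2 libraries that stand apart AGR2 was at -1.66 ± 0.09, HSPA5 at -0.77 ± 0.04 and TRAM1 at -0.68 ± 0.04.

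For deprived minus high glucose the differences were 1.30 ± 0.18 for CHAC1 (adjusted p = 9.4e-04), 0.80 ± 0.18 for ST3GAL5 (adjusted p = 0.031), 0.58 ± 0.11 for TRIB3 (adjusted p = 0.012) and -0.56 ± 0.08 for RCAN1 (adjusted p = 9.1e-04). CHAC1 fell with CGRP to 1.77 ± 0.271 CPM in high glucose, against 5.18 ± 0.631 CPM without it (SD, n = 3 each). In deprived medium without the 2 libraries it differed by -0.34 ± 0.07 on the log2 scale.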

How the results depend on the processing

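Of 2340 comparisons of a member's log2 fold change with its value under an alternative, over 90 results, 2208 kept sign and side of the threshold, 27 lost the call, 50 gained one and 2 turned round and passed. Another 53, in 21 results, changed sign without passing either way, from a log2 fold change of at most 0.20 in size. Without both libraries that stand apart, MBTPS1 with CGRP in deprived medium turned to 0.10 (adjusted p = 0.011) and CREB3L2 in the interaction with deprivation to 0.19 (adjusted p = 0.047). In that setting the members passing were 5 for 2-DG, 3 for 2-DG with CGRP, 5, 3 and 7 for CGRP in high glucose, deprived and 2-DG medium, and 1 and 2 for the interactions with deprivation and 2-DG. With only the groups compared they were 3 for 2-DG with CGRP, 5 for CGRP in high glucose, 0 in deprived medium and 1 for the 2-DG interaction. CGRP in deprived medium also gave 0 with RLE, with total counts, without a filter and with the stricter one, and the 2-DG interaction gave 1 with total counts and 1 with DESeq2. The cause was not tested. With 1 library left out the counts ran from 7 to 8 for deprivation, 3 to 5 for 2-DG, 6 to 8 for 2-DG against deprivation, 6 to 8 for deprivation with CGRP, 1 to 1 for 2-DG with CGRP, 0 to 2, 0 to 2 and 1 to 6 for CGRP in high glucose, deprived and 2-DG medium, and 0 to 0 and 0 to 1 for the interactions. The deprived CGRP library accounts for the highest values of 5, 2 and 6 for 2-DG, CGRP in high glucose and CGRP in 2-DG medium. Without it 4274, 1565 and 3853 of all genes passed in these comparisons, against 2513, 787 and 2216 with all libraries.

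Same-numbered replicates of different groups were mostly not alike: of 45 such pairs, with r from -0.185 to 0.636, 6 were over 0.1. Of these 6, 3 were the pairs between the deprived CGRP and 2-DG control groups (0.367, 0.636 and 0.329), which are not compared with each other and in which replicate 2 stands apart. The deprived and high-glucose CGRP groups, which are compared, had 0.174 and 0.117 for replicates 1 and 2, and -0.0821 for replicate 3. The last was replicate 1 of the 2-DG control and high-glucose CGRP groups (0.145). The replicate block gave 2 members for CGRP in deprived medium (ERN1 and BHLHA15) and changed no other count of members by over 1.5 times.

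Over all genes, 5997 passed for 2-DG without both libraries and 1551 with only the groups compared, against 2513. For 2-DG with CGRP the counts were 3598, 2363, 246 without a filter and 710 with DESeq2, against 434. For CGRP in high glucose they were 3520, 3653 and 474 without a filter, against 787; in deprived medium 5307, 141 and 1463, against 2354; and in 2-DG medium 5249 and 1194, against 2216. For the interactions they were 2500, 164, 163 and 519, against 282, and 1092, 142, 30 and 228, against 71. Total-count scaling moved the median of all genes to -0.13 for deprivation, against 0.02. It set the share of calls that were higher at 38% for deprivation, against 51.2%, at 38.1% for 2-DG, against 57.7%, at 41.5% for deprivation with CGRP, against 52.8%, and at 51.1% for 2-DG with CGRP, against 63.6%. For CGRP it was 66.2% in deprived medium, against 49.2%, and 57% in 2-DG medium, against 43.5%, and for the interactions 70.5%, against 58.2%, and 44.4%, against 31%.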
